A study of Mus musculus with 30 samples.

Results

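Kidneys of mice that had received rapamycin until 25 months of age were compared with kidneys of control mice aged 25 weeks. Kidney arrays were grouped by the source name of each sample, which gave 4 rapamycin arrays and 4 control arrays at 25 weeks, or 8 of the 30 arrays of the study. Each array held the RNA of 1 mouse, and the brain and heart of the same mice supplied the remaining tissues. All mice were wild-type (genotype wildtype) males of the strain C57BL/6JRj, and the labels state a random allocation to rapamycin or vehicle. For the treated mice of this cohort, treatment began at 13 months of age and had lasted more than 12 months. The rapamycin kidneys differed from the 25-week kidneys in both drug and age, so an effect of the drug and an effect of age cannot be told apart in this comparison. Kidneys of 2 control mice aged 25 months were also measured; their values are printed between the other groups and were not tested here. The sample titles marked these 25-month controls as young, against their source name and stated age, and the source name was followed.

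Rapamycin binds the small protein FKBP12, encoded by Fkbp1a, and the pair inhibits mTOR complex 1, a kinase complex that promotes protein synthesis and restrains autophagy when nutrients are plentiful. The kidney filters blood in glomeruli and recovers solutes along the proximal tubule, the loop of Henle, the distal tubule and the collecting duct, each with its own transporters. Injured tubule cells are known to switch on secreted and surface proteins such as Lcn2 and Havcr1, and ageing mouse kidneys are known to gather macrophages and lymphocytes.

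Transcripts were read on Illumina BeadChips with 25697 probes, and levels are given as normalised log2 intensity, on which a step of 1 is a doubling. The second rapamycin array stood apart: 9989 of its probes were detected above background and its median signal was 100.8, while the remaining 9 kidney arrays had 11962 to 12777 probes and 117.5 to 130.7. Across probes it correlated with the remaining kidney arrays at a median of 0.8585, and the first principal component of all 10 arrays (75.41% of the variance) placed it at 132, with the other arrays between -24.71 and -2.501. Every comparison was therefore made with all 10 kidney arrays and again with 9, leaving this array out. With 9 arrays the first component (47.21%) ran from 16.55 to 22.05 in the 25-week controls, while the rapamycin kidneys and the 25-month controls lay between -31.52 and -5.5. Of 10 defining markers of tubule segments, 8 were detected on all 10 arrays. Lrp2 of the proximal tubule was detected on 3 of 4 rapamycin arrays and on all control arrays, and Atp6v1g3 of intercalated cells on 1 of 4 rapamycin arrays, 1 of 2 arrays of the 25-month controls and 4 of 4 of the 25-week controls. The glucose transporter Slc5a2 of the proximal tubule had 5.65 on the low-signal array, 8.52 to 8.67 on the other rapamycin arrays and 8.87 to 9.23 in the 25-week controls. The phosphate transporter Slc34a1 of the proximal tubule had 13.94 to 14.14 in the rapamycin kidneys and 13.94 to 14.04 in the 25-week controls, and uromodulin (Umod) of the thick limb had 13.03 to 13.75 and 13.23 to 13.45. The platform carried no probe for the podocyte marker Nphs1 or the macrophage receptor Csf1r. In what follows a gene is called when limma's Benjamini-Hochberg adjusted p over all tested probes is under 0.05, and errors after ± are standard errors (n = 4 rapamycin and 4 control arrays in the 10-array fit, 3 and 4 in the 9-array fit).

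With 9 arrays, several lists held more genes called higher than lower in the rapamycin kidneys, where 6.04% of all genes were called higher and 2.83% lower. They included macrophage (16 and 0 of 20), chemokine and cytokine (12 and 0 of 23), tubular injury (11 and 0 of 16), matrix (11 and 1 of 26) and complement genes (7 and 1 of 11). Others were glucocorticoid-responsive (9 and 0 of 16), clock (8 and 3 of 16), immediate early (7 and 0 of 11), interferon-induced (7 and 0 of 23) and matrix protease genes (7 and 0 of 13). Lists with more genes called lower than higher included androgen-dependent (7 lower and 1 higher of 16) and late proximal tubule genes (4 lower and 1 higher of 16). With 10 arrays, 33 of 9663 genes were higher (0.342%) and 7 were lower (0.0724%). With 9 arrays, 577 of 9549 genes were higher (6.04%) and 270 were lower (2.83%), of which 115 and 29 differed by at least 2-fold. All 40 genes called with 10 arrays were called in the same direction with 9, and 831 of the 847 genes called with 9 arrays had the same sign with 10. By probe, the calls numbered 51 of 13805 (0.369%) and 1156 of 13651 (8.47%). Of those 1156 probes 725 were higher and 431 lower, and scaling the arrays to a common median in place of quantile normalization gave 1185 higher and 242 lower. Both counts moved with single arrays. Leaving out each array in turn gave 2 to 1156 called probes from the 10-array fit, and Havcr1 and Akr1c18 were the 2 genes called in every one of those 10 fits. The count of 1156 came from leaving out rapamycin replicate 2, while 16 and 3 remained without rapamycin replicates 3 and 4 and 2 to 6 without any 1 of the 25-week controls. From the 9-array fit it gave 431 (without rapamycin replicate 3) to 2318 probes (without rapamycin replicate 1), with 518 without rapamycin replicate 4 and 551 to 709 without any 1 of the 25-week controls. Of the 847 genes, 271 (227 higher and 44 lower) were called in all 9 of these fits. Of the 110 such genes selected by rule for the text 75 were, and 35 were called in fewer fits, 30 of which lost the call without rapamycin replicate 3 and 26 without rapamycin replicate 4. For such genes the number of fits that called them follows the value below. Among selected genes called higher with 9 arrays, the low-signal array lay below every 25-week array for Lyz2, Cd74, Sgk1, Klf2, Cirbp, Rbm3 and Phlda3. It also did so for Aqp4, Fxyd4, Rps9, Rps19, Angptl4 and Pou2af1. For the falls of Aadat and Hbb-bt that array lay above every 25-week array. None of these genes was called with 10 arrays.

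**Figure D1:**
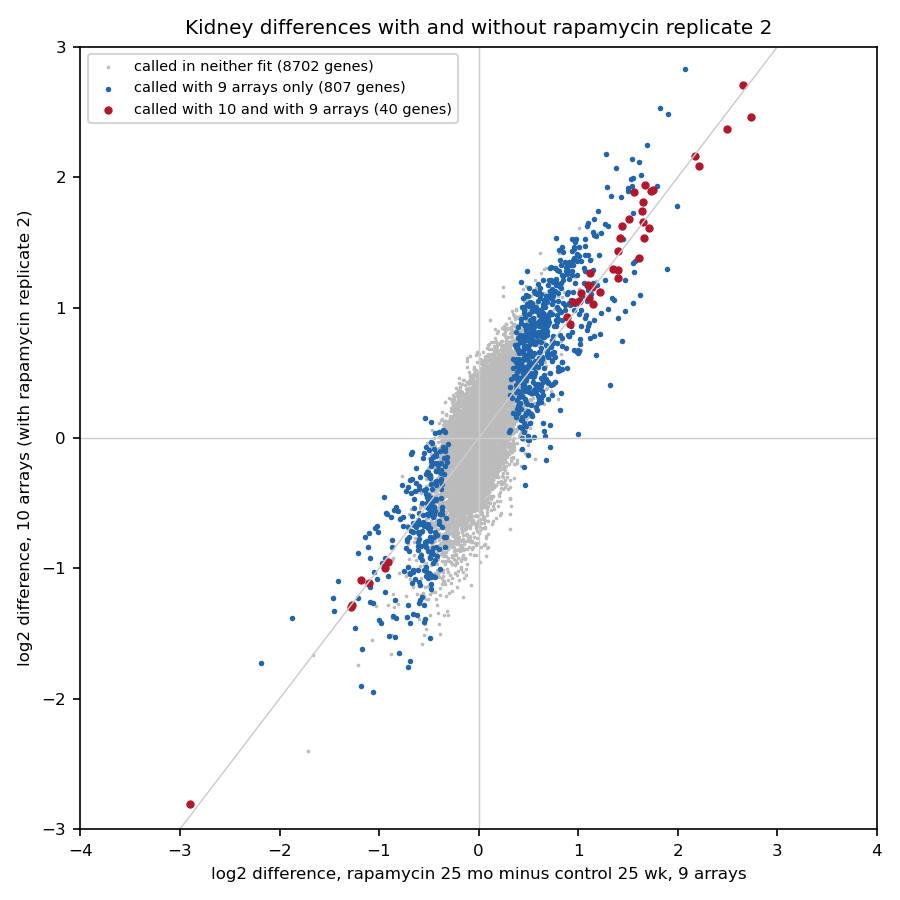
Log2 difference of each gene between rapamycin kidneys at 25 months and control kidneys at 25 weeks, with 9 arrays (horizontal axis) and with 10 arrays (vertical axis). The 40 genes called in both fits (red) lie near the diagonal, and 807 further genes (blue) were called with 9 arrays and not with 10.

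Of the genes called in both fits, the largest rise with 10 arrays was that of Kynu, on chromosome 2, which encodes kynureninase, an enzyme that cleaves kynurenine in the breakdown of tryptophan. Its level was 7.24, 7.86, 8.57 and 6.55 in the rapamycin kidneys, 8.70 and 7.85 in the 25-month controls and 4.80, 4.58, 4.85 and 5.17 in the 25-week controls. Every rapamycin kidney lay above every 25-week kidney, by 2.71 ± 0.39 on average with 10 arrays (adjusted p = 0.0238) and 2.66 ± 0.38 with 9 (0.00293). The 25-month controls lay within or above the range of the rapamycin kidneys. Only 1 of the 4 arrays at 25 weeks detected the Kynu probe, so its level there lies near background and the size of the rise is uncertain. The same holds for Aldh1a1, Ms4a6d, Ccl8, Serpina3n, Abcc3 and Cd79b below. Lcn2 on the same chromosome encodes lipocalin 2, an iron-siderophore binding protein released by injured tubules. It had 9.09, 8.08, 9.74 and 8.90 in the rapamycin kidneys, 10.03 and 8.55 in the 25-month controls and 6.01, 7.04, 6.50 and 6.43 in the 25-week controls. The difference was 2.46 ± 0.41 (adjusted p = 0.0413) and 2.74 ± 0.33 with 9 arrays (0.00104), with no overlap between rapamycin and 25-week kidneys. With each array left out in turn, the 10-array call held in 6 of 10 fits for Kynu and in 3 of 10 for Lcn2.

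Havcr1, on chromosome 11, encodes kidney injury molecule 1, a surface receptor that injured proximal tubule cells use to take up dying cells. Its values were 7.56, 7.56, 7.42 and 7.42 in the rapamycin kidneys, 6.93 and 6.45 in the 25-month controls and 5.65, 5.56, 5.25 and 4.85 in the 25-week controls. The 4 rapamycin kidneys had nearly the same level and lay above both control groups, and the array with low signal gave the same level as the rest. The rise over the 25-week controls was 2.16 ± 0.20 (adjusted p = 0.00505) with 10 arrays and 2.17 ± 0.19 (0.000189) with 9. Vcam1, an adhesion molecule to which leukocytes bind, had 8.90, 8.41, 9.04 and 8.96 in the rapamycin kidneys, 8.83 and 8.23 in the 25-month controls and 7.18, 6.59, 6.66 and 6.53 in the 25-week controls. Its rise was 2.09 ± 0.22 (0.00925) with 10 arrays, and the values of the 25-month controls fell close to those of the treated mice. Aldh1a1, a retinaldehyde dehydrogenase, had 7.13, 6.97, 7.40 and 7.06 in the rapamycin kidneys, 7.92 and 6.71 in the 25-month controls and 4.80, 5.02, 4.48 and 4.78 in the 25-week controls. It rose by 2.37 ± 0.25 (0.00925), and again the treated and the 25-month control kidneys shared a range. With each array left out in turn, the 10-array call held in 7 of 10 fits for Vcam1 and in 6 of 10 for Aldh1a1.

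The other 5 of the 10 largest rises called in both fits were those of Cfi, Ms4a6d, Ccl9, Sla and Csprs. Cfi, the protease that inactivates complement C3b and C4b, had 7.04, 8.50, 7.59 and 7.28 in the rapamycin kidneys, 7.03 and 6.78 in the 25-month controls and 5.80, 5.70, 5.62 and 5.51 in the 25-week controls, a rise of 1.95 ± 0.28 (adjusted p = 0.0238). The low-signal array held the highest value, and without it the rise was 1.67 ± 0.14 (0.000139). Ms4a6d, a membrane protein of macrophages, had 6.21, 7.20, 6.39 and 6.45 in rapamycin kidneys, 7.59 and 6.55 in 25-month controls and 4.47, 4.67, 4.96 and 4.55 in 25-week controls, and 1 of its 2 tested probes was called with 9 arrays. The chemokine Ccl9 had 6.72, 7.77, 6.59 and 7.68, then 7.15 and 6.15, and 5.40, 5.40, 5.27 and 5.12 in the same order of groups. Both genes separated the rapamycin from the 25-week kidneys without overlap, by 1.90 ± 0.27 and 1.89 ± 0.31. Sla, an adaptor that dampens antigen receptor signalling in lymphocytes, had 7.31, 8.62, 6.99 and 7.39 in the rapamycin kidneys, 6.53 and 6.14 in the 25-month controls and 5.73, 5.53, 5.90 and 5.59 in the 25-week controls. Each rapamycin kidney exceeded both 25-month controls, and the rise over 25 weeks was 1.89 ± 0.31 (0.0413), or 1.56 ± 0.14 (0.000241) without the second array. Of the 2 tested probes of Sla, 1 was called with 9 arrays. Csprs, a member of a repeated gene cluster on chromosome 1 whose copies the probe may not tell apart, had 6.60, 7.66, 6.96 and 7.06 in rapamycin kidneys, 6.58 and 6.49 in 25-month controls and 5.15, 5.35, 5.40 and 5.12 in 25-week controls, a rise of 1.81 ± 0.21 (0.0122). With each array left out in turn, the 10-array call held in 1 of 10 fits for Sla, 3 for Ccl9, 4 for Cfi and Ms4a6d and 5 for Csprs.

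**Figure D2:**
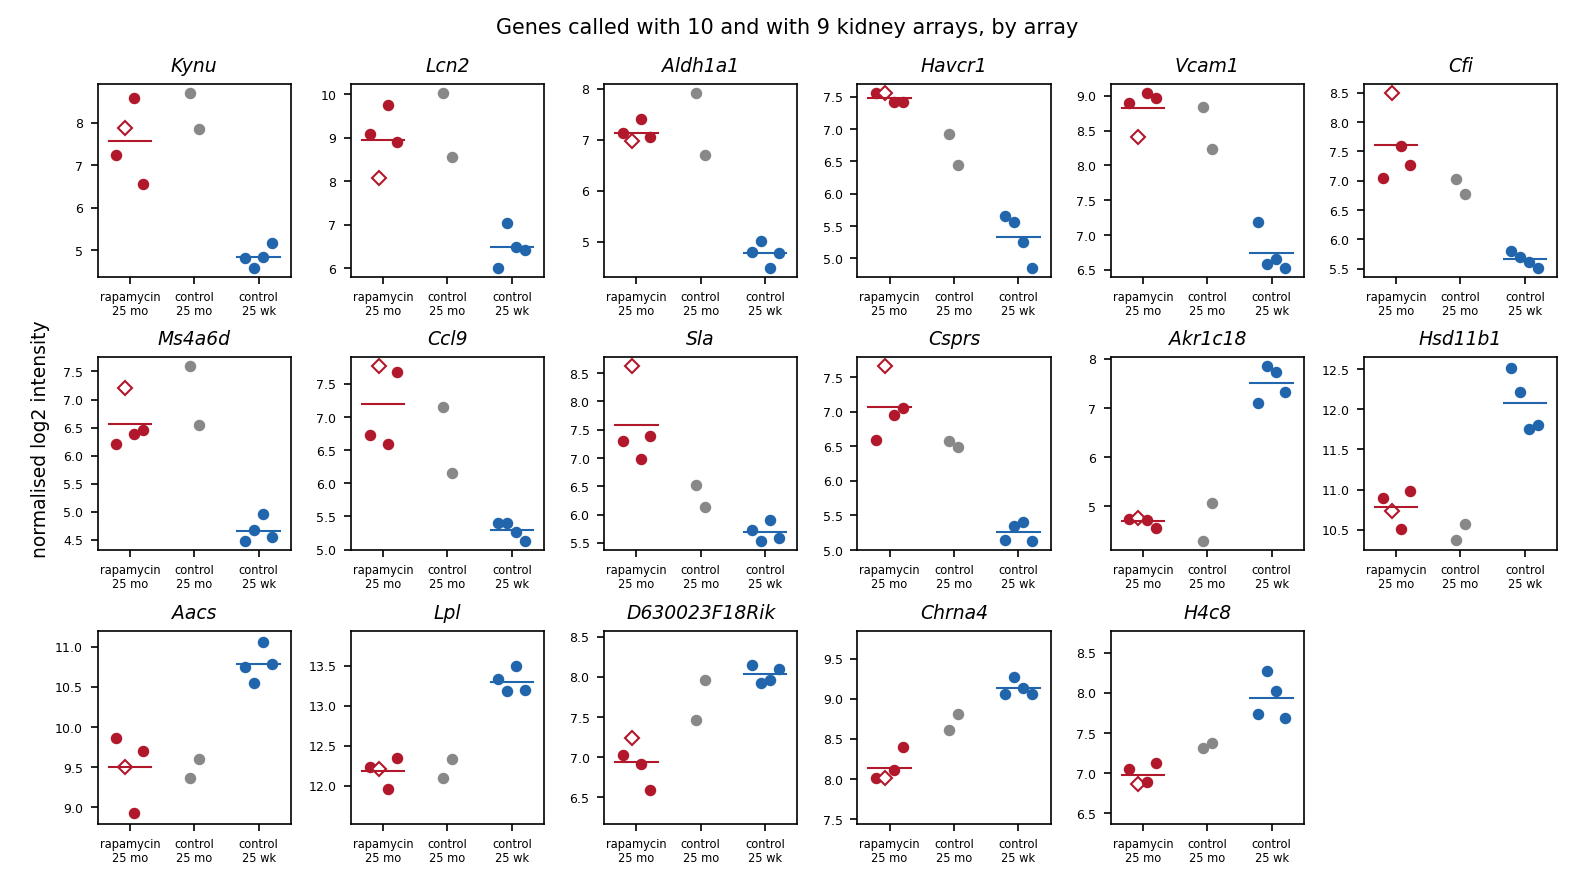
Normalised log2 intensity of 17 genes called with 10 and with 9 kidney arrays, with 1 point per array for rapamycin at 25 months, control at 25 months and control at 25 weeks; lines mark the means of the 4 rapamycin and the 4 control arrays at 25 weeks, and the open diamond is rapamycin replicate 2. In all 17 panels the rapamycin points do not overlap the 25-week points, and for Havcr1, Sla, D630023F18Rik, Chrna4 and H4c8 the rapamycin points also lie apart from the 25-month controls. For Cfi and Csprs the lowest rapamycin points (7.04 and 6.60) nearly touch the higher 25-month control (7.03 and 6.58).

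The largest fall was that of Akr1c18, on chromosome 13, the enzyme that inactivates progesterone to its 20-alpha-hydroxy form. It had 4.75, 4.75, 4.72 and 4.55 in the rapamycin kidneys, 4.28 and 5.07 in the 25-month controls and 7.10, 7.85, 7.74 and 7.33 in the 25-week controls. All 25-week kidneys were well above the rest, and no rapamycin array detected the probe, so its level there has only an upper bound and it was at least 5.73-fold lower than in the 25-week controls (adjusted p = 0.00242 with 10 arrays and 0.000123 with 9). The 250 bases before its start (RefSeq, build GRCm38.p6, chr13:4150647-4150896, minus strand) are shown because this gene had the largest difference. They hold the D-box TTATGTAA, read on either strand, which is bound by the output factors of the clock described below. The match is in capitals and reads in the other orientation, 192 bases before the start. Such windows were found for 80 of the 112 genes selected by rule, 106 windows in all, and the D-box was in 1 of them (0.943%), against 0.819% of 32851 windows of all genes.
Akr1c18: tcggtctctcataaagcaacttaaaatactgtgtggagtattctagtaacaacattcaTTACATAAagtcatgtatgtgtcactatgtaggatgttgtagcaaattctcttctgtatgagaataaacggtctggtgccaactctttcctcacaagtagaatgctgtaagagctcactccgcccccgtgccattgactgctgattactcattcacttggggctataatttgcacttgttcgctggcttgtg

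Another 6 genes fell in both fits. Hsd11b1 encodes the enzyme that regenerates active corticosterone inside cells. It had 10.89, 10.73, 10.51 and 10.98 in the rapamycin kidneys, 10.37 and 10.57 in the 25-month controls and 12.52, 12.22, 11.76 and 11.80 in the 25-week controls, a difference of -1.30 ± 0.20 (adjusted p = 0.0347), and 3 of its 4 tested probes were called lower with 9 arrays. Lipoprotein lipase (Lpl), which frees fatty acids from circulating lipoproteins, had 12.24, 12.21, 11.96 and 12.35 in rapamycin kidneys, 12.10 and 12.34 in 25-month controls and 13.33, 13.18, 13.50 and 13.19 in 25-week controls, a difference of -1.11 ± 0.14 (0.0189). Aacs, which activates the ketone body acetoacetate for lipid synthesis, differed by -1.28 ± 0.21 (0.0413). The rapamycin kidneys had 8.93 to 9.87 and the 25-week controls 10.55 to 11.06. For these 3 genes the 25-month controls lay within or close to the range of the treated kidneys. Chrna4, a nicotinic acetylcholine receptor subunit, behaved differently in that its 25-month controls were intermediate: it had 8.02, 8.02, 8.11 and 8.40 in rapamycin kidneys, 8.62 and 8.81 in 25-month controls and 9.06, 9.27, 9.13 and 9.06 in 25-week controls, with a difference of -0.99 ± 0.14 (0.0236). The unnamed transcript D630023F18Rik on chromosome 1 had 7.03, 7.24, 6.91 and 6.60 in rapamycin kidneys, 7.46 and 7.97 in 25-month controls and 8.15, 7.92, 7.96 and 8.10 in 25-week controls, a difference of -1.09 ± 0.18 (0.0413). H4c8 is 1 of several nearly identical histone H4 genes, so its probe may read others as well. It differed by -0.95 ± 0.16 (0.0464). With each array left out in turn, the 10-array call held in 1 of 10 fits for Hsd11b1 and H4c8 and in 2 for Aacs. It held in 3 for Chrna4 and D630023F18Rik and in 4 for Lpl.

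Beyond those 17, the largest rises called with 9 arrays included genes for which the low-signal array was far above the other treated kidneys. Serpina10, a protease inhibitor of the clotting system, had 10.54 there, 7.13 to 7.52 on the other rapamycin arrays, against 4.67 to 5.97 in the 25-week controls. Cxcl1, a chemokine that attracts neutrophils, had 9.93 there and 6.79 to 7.01 on the others, against 4.78 to 5.71. In both cases the remaining 3 treated kidneys still lay above all 25-week kidneys, and the rises with 9 arrays were 2.07 ± 0.31 (adjusted p = 0.00345) and 1.82 ± 0.25 (0.0024); with 10 arrays neither was called (0.146 and 0.159). Hao2, a peroxisomal oxidase of hydroxy acids, rose by 2.00 ± 0.25 (0.00125), and Timp1, an inhibitor of matrix metalloproteinases, by 1.90 ± 0.24 (0.00126). The fatty acid hydroxylase Cyp4a14 (1.90 ± 0.53, 2 of 9 fits, 0.0497) and the serpin Serpina3n (1.70 ± 0.46, 2 of 9 fits, 0.0436) were also called. Among the falls with 9 arrays, transthyretin (Ttr), the carrier of thyroxine and of retinol-binding protein, had 8.89 to 9.58 on the other 3 rapamycin arrays, 10.36 and 10.38 in the 25-month controls and 11.32 to 11.93 in the 25-week controls. It differed by -2.19 ± 0.18 (0.00015), while the low-signal array, at 11.25, lay close to the 25-week kidneys. Angptl7 (-1.45, 7 of 9 fits), Mfsd2a (-1.21, 3 of 9 fits), a lipid transporter, and Myo5a (-1.24, 8 of 9 fits), a vesicle motor, fell with 9 arrays as well.

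Macrophage genes were higher as a group in the rapamycin kidneys. With 9 arrays, 16 of 20 tested members of the macrophage list were called higher and none lower, with a median difference of 1.19 against -0.0033 over all genes; with 10 arrays 3 of 20 were called higher. C1qa, a chain of the complement initiator C1q that tissue macrophages make, had 6.93, 6.67, 6.94 and 7.30 in the rapamycin kidneys, 7.02 and 6.39 in the 25-month controls and 5.68, 5.45, 5.26 and 5.32 in the 25-week controls. Rapamycin and 25-week kidneys did not overlap, and the rise was 1.66 ± 0.17 (adjusted p = 0.000478) with 9 arrays and 1.53 ± 0.19 (0.0172) with 10. Its partners C1qb (1.57 ± 0.18) and C1qc (1.55 ± 0.17) rose with 9 arrays, as did the adhesion receptor Adgre1, known as F4/80 (1.10 ± 0.14). Lysozyme 2 (Lyz2), whose probe may also read its close relative Lyz1, rose by 1.55 ± 0.31 (0.0138) with 9 arrays. It was not called with 10 (1.04, adjusted p = 0.404). The low-signal array gave 6.67 for Lyz2, against 8.10 to 9.57 on the other rapamycin arrays and 6.67 to 7.79 in the 25-week controls. The Fc receptor subunits Fcer1g (1.35) and Fcgr3 (1.30) and the mannose receptor Mrc1 (1.22), named after their values were seen, were among the other called members. In whole tissue, more cells of a type and more RNA per cell cannot be told apart. The summed intensity of the list was 14470 on the low-signal array and 5808 to 7683 on the other rapamycin arrays, 5970 to 8674 in the 25-month controls and 2264 to 3100 in the 25-week controls.

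The lists of T cell and of B and plasma cell genes also held members that rose. With 9 arrays 4 of 5 tested members of the T cell list were called higher, among them the receptor chains Cd3d (0.83 ± 0.17, 8 of 9 fits, adjusted p = 0.0139) and Cd3e (0.73 ± 0.16, 5 of 9 fits, 0.0219) and the chemokine Ccl5 (1.55 ± 0.33, 8 of 9 fits, 0.0164), and none of the 6 tested with 10 arrays was called. Of 6 B and plasma cell genes 2 were higher, Pou2af1, a coactivator of B cells (0.82 ± 0.11, 0.00211), and Cd79b (0.57 ± 0.13, 5 of 9 fits, 0.0219), while the defining marker Cd79a differed by 0.13 ± 0.14 (0.597) and Jchain was detected on 1 rapamycin array. No 25-week array detected Pou2af1, and its mean over the 4 rapamycin arrays was at least 1.24-fold higher. On the low-signal array it read 4.41, against 4.59 to 4.74 in the 25-week controls. With 10 arrays neither Pou2af1 (adjusted p = 0.385) nor any other gene of the B and plasma cell list was called. No member of the neutrophil list was called, although S100a8 had 1.18 ± 0.44 (0.12), and the granule gene Ngp was detected on no kidney array. On the low-signal array Cd3e stood above the other treated arrays, with 7.35 there and 5.46 to 5.64 on the other 3, against 4.55 to 5.06 in the 25-week controls.

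Antigen presentation and complement genes were higher beside the macrophage genes, whose part in these results was not tested. Of 8 MHC class II genes 5 were called higher with 9 arrays (median 1.12) and none with 10. H2-Eb1, a chain of the class II molecule, had 10.71, 10.92, 10.55 and 11.01 in the rapamycin kidneys, 10.98 and 10.11 in the 25-month controls and 9.91, 9.55, 9.52 and 9.45 in the 25-week controls, a rise of 1.15 ± 0.20 (adjusted p = 0.00623). The partner chain H2-Aa rose by 1.29 ± 0.22 and the invariant chain Cd74 by 1.16 ± 0.24, 8 of 9 fits. None of 12 class I genes passed, although all 12 had positive differences (median 0.47). In the complement list 7 of 11 were higher and 1 was lower with 9 arrays, and 2 were higher with 10. Besides C1q and Cfi, C4b, a component of the classical pathway known to rise with age in mouse tissues, had 7.40, 9.74, 7.90 and 8.48 in the rapamycin kidneys, 8.44 and 7.49 in the 25-month controls and 6.63, 6.18, 6.47 and 6.28 in the 25-week controls and rose by 1.54 ± 0.26 (0.00581). With 10 arrays C4b was not called (adjusted p = 0.112). The C1 inhibitor Serping1 rose too with 9 arrays (1.10 ± 0.12). The member that fell was Cd55, a membrane inhibitor of complement (-1.09 ± 0.16); Serping1 and Cd55 were named after their values were seen.

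Among chemokines and cytokines, 12 of 23 were called higher with 9 arrays and 3 of 24 with 10, and none was lower. Cxcl13, which draws B cells, was detected on no 25-week array. It had 6.38, 6.02, 5.80 and 6.21 in rapamycin kidneys, 7.17 and 6.22 in 25-month controls and 4.52, 4.49, 4.52 and 4.45 in 25-week controls and was at least 2.34-fold higher (adjusted p = 0.000916 with 9 arrays and 0.0189 with 10). The 25-month controls were the highest or among the highest for this gene and for the monocyte chemokine Ccl8, which had 6.23, 7.19, 5.90 and 6.89 in rapamycin kidneys, 8.56 and 6.98 in 25-month controls and 4.91, 4.46, 4.67 and 4.42 in 25-week controls (1.79 ± 0.33, 0.00844). Tnfsf13b, the B cell survival factor BAFF, rose in both fits (1.17 ± 0.16, 0.022), and Cx3cl1, the ligand of a macrophage receptor, with 9 arrays (0.84 ± 0.11, 0.00173). Of 23 interferon-induced genes 7 were higher with 9 arrays and none with 10. Oas1g, an antiviral oligoadenylate synthetase with close relatives that its probe may read, had 6.47, 6.38, 7.17 and 6.95 in the rapamycin kidneys, 6.90 and 6.53 in the 25-month controls and 5.75, 5.82, 5.91 and 5.71 in the 25-week controls and rose by 1.08 ± 0.16 (0.00303). Usp18, a brake on interferon signalling, rose by 1.06 ± 0.19 and Lgals3bp by 1.16 ± 0.21. Rsad2 and Isg15, other well-known members, gave -0.17 and 0.44 and were not called.

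Tubular injury genes rose in 11 of 16 tested cases with 9 arrays and in 3 of 17 with 10, and none fell (median 0.70). After Lcn2, Vcam1 and Havcr1, the members with the next largest rises were fibrinogen gamma (Fgg, 1.21 ± 0.32, 4 of 9 fits) and the adhesion molecule Icam1 (1.07 ± 0.21, 7 of 9 fits), both named after their values were seen. The membrane-binding protein Anxa2 rose by 0.84 ± 0.09 (adjusted p = 0.000681), while clusterin (Clu) gave 0.50 ± 0.16 (0.0794). Growth arrest genes were in part higher, with 4 of 16 members of the p53 and senescence list called with 9 arrays and none with 10. The cyclin-dependent kinase inhibitor Cdkn1a had 7.69, 8.65, 7.49 and 7.64 in the rapamycin kidneys, 7.93 and 7.23 in the 25-month controls and 6.46, 6.49, 6.81 and 6.71 in the 25-week controls and rose by 0.99 ± 0.16 (0.00449), with all 3 of its probes called. Cdkn2b (0.65 ± 0.11) and Phlda3 (0.75 ± 0.13) rose as well, and Cdkn2a gave 0.11 ± 0.16 (0.692). Cdkn1c, a further inhibitor, expressed by podocytes and counted in the podocyte list, rose by 0.85 ± 0.10 and was its only called member of 7. With 10 arrays no podocyte gene was called.

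Matrix genes followed the same direction in 11 of 26 cases, against 1 lower, with 9 arrays, and 2 of 27 were called higher with 10. Matrix Gla protein (Mgp), an inhibitor of calcification, had 11.76, 11.43, 11.71 and 12.15 in the rapamycin kidneys, 10.77 and 11.12 in the 25-month controls and 10.50, 10.81, 10.36 and 10.23 in the 25-week controls. The treated kidneys lay above both control groups, and the rise over 25 weeks was 1.29 ± 0.20 (adjusted p = 0.0338) with 10 arrays and 1.40 ± 0.16 (0.000894) with 9. The proteoglycan decorin (Dcn) rose in both fits (1.04 ± 0.16, 0.0347) and biglycan (Bgn) with 9 arrays (0.77 ± 0.12). Collagen chains did not move as one: Col6a1 (0.90 ± 0.17) and Col15a1 (0.75 ± 0.17, 3 of 9 fits) rose, Col1a1 (0.47 ± 0.25) and Col1a2 (0.07 ± 0.15) were not called, and Col4a3 of the glomerular basement membrane fell (-0.71 ± 0.16, 5 of 9 fits); these 5 were named after their values were seen. Among matrix proteases and their inhibitors 7 of 13 rose with 9 arrays, including Timp2 (0.76 ± 0.09) and the membrane protease Mmp14 (1.16 ± 0.15), and none was called with 10. For Timp1 the low-signal array had 9.48, against 6.52 to 7.63 on the other treated arrays and 4.74 to 5.34 in the 25-week controls.

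**Figure D3:**
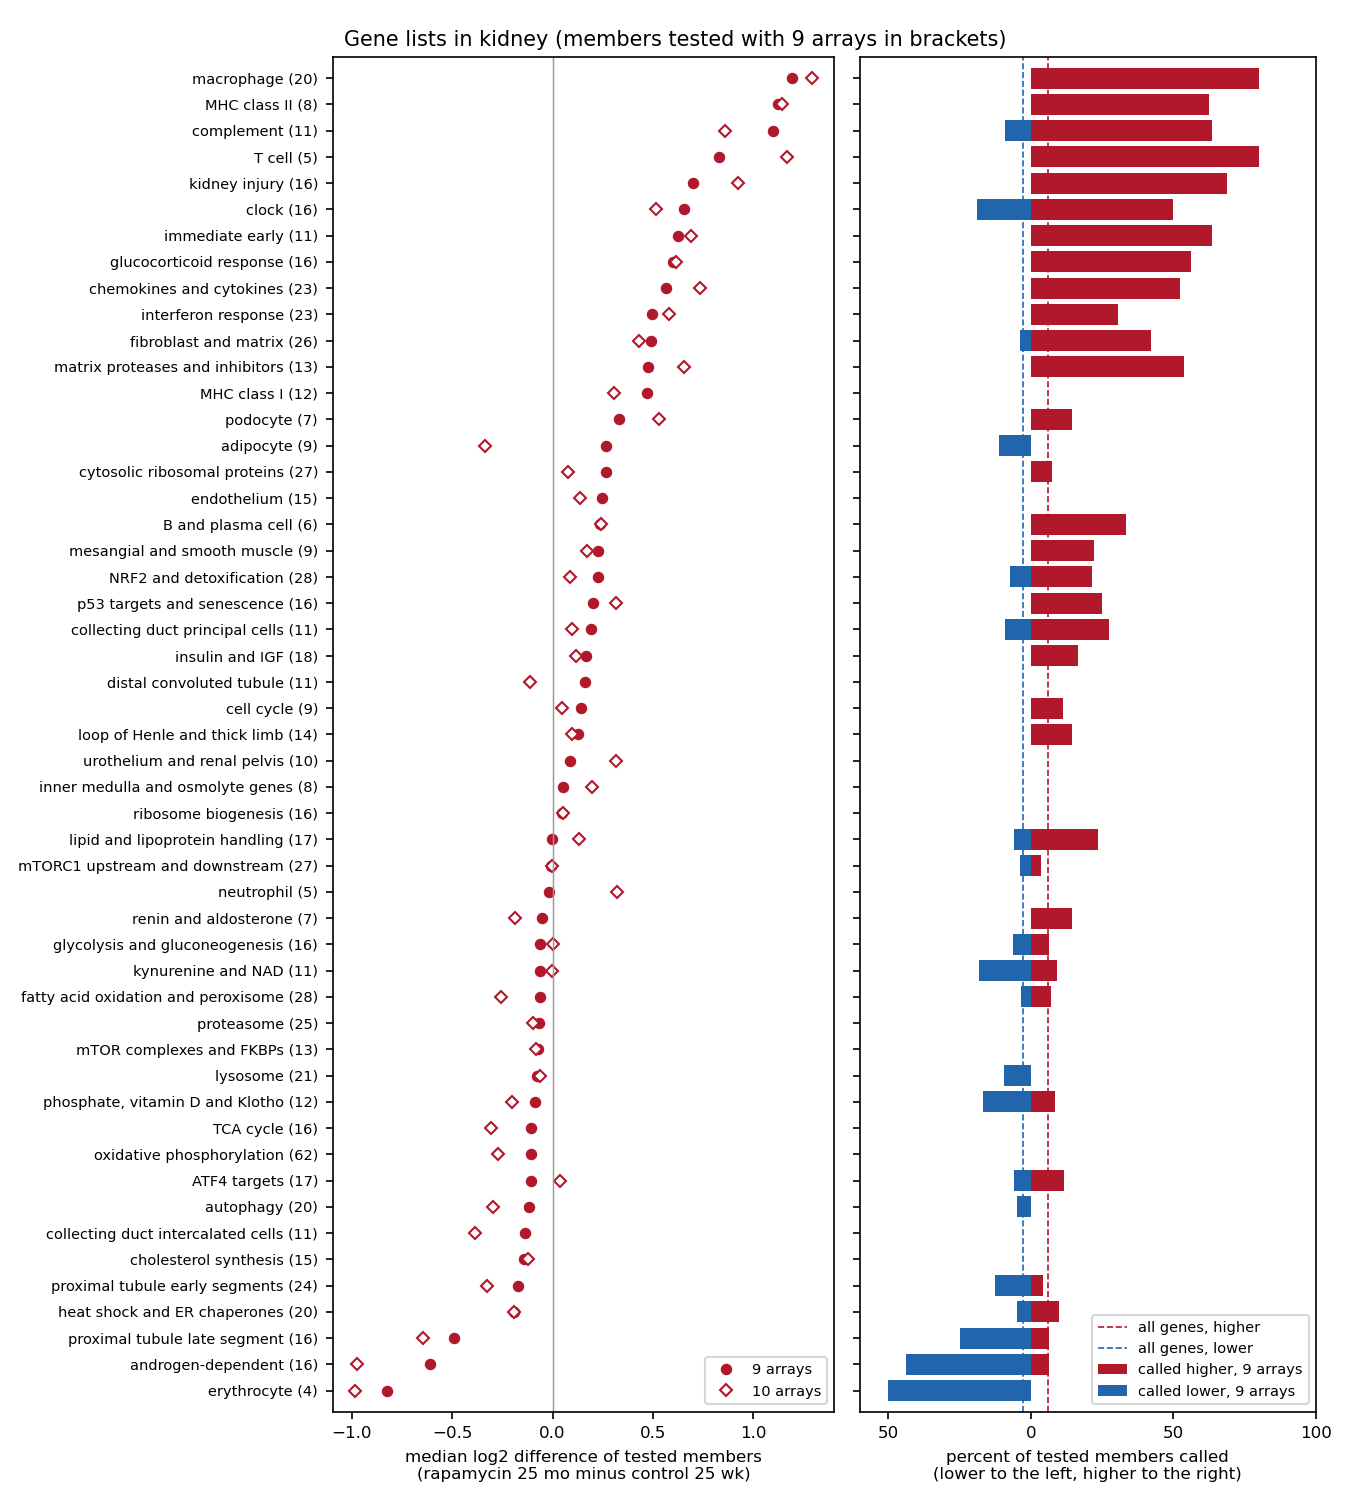
Left, the median log2 difference of each gene list between rapamycin kidneys at 25 months and control kidneys at 25 weeks, with 9 arrays (filled) and 10 arrays (open). Right, the percentage of tested members called higher (red) or lower (blue) with 9 arrays, with dashed lines at 6.04% and 2.83% for all genes. Macrophage, MHC class II and complement genes had the highest medians among lists with at least 4 tested members, and androgen-dependent and erythrocyte genes the lowest.

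In the proximal tubule more genes fell than rose. Of 16 genes of its late segment 4 fell and 1 rose with 9 arrays (median -0.49), and of 24 genes of its early segments 3 fell and 1 rose (median -0.17). None was called with 10. Slc22a7, an organic anion transporter, had 6.53, 8.17, 5.83 and 6.31 in the rapamycin kidneys, 5.61 and 6.39 in the 25-month controls and 7.71, 8.23, 8.26 and 8.17 in the 25-week controls, and without the second array, whose value lay in the 25-week range, the difference was -1.87 ± 0.22 (adjusted p = 0.000903). Slc34a3, a sodium-phosphate cotransporter of the early segments, had 6.58, 7.54, 6.59 and 6.61 in the rapamycin kidneys, 7.37 and 7.50 in the 25-month controls and 8.08, 7.77, 8.24 and 8.14 in the 25-week controls. Its other 3 treated kidneys were below both control groups, a difference of -1.47 ± 0.11 (0.000123) from the 25-week controls. The main phosphate transporter Slc34a1 gave 0.06 ± 0.09 (0.684). The amino acid transporter Slc7a8 (-0.51 ± 0.11, 5 of 9 fits) fell, and Hpd, a tyrosine-degrading enzyme, rose (1.43 ± 0.28, 0.0127). Vitamin D enzymes moved in opposite directions. Cyp24a1, which inactivates the hormone, had 9.77, 10.30, 10.13 and 9.97 in the rapamycin kidneys, 10.63 and 10.00 in the 25-month controls and 10.79, 10.57, 11.03 and 10.91 in the 25-week controls and fell (-0.87 ± 0.16, 0.00949), whereas Cyp27b1, which makes it, rose (0.97 ± 0.23, 3 of 9 fits, 0.0284). No 25-week array detected Cyp27b1, and its mean over the 4 rapamycin arrays was at least 1.73-fold higher. With 10 arrays it was not called (adjusted p = 0.142). The receptor Vdr (-0.21) and Klotho (Kl, -0.30) were not called.

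Androgen-dependent genes were lower in 7 of 16 tested cases with 9 arrays and higher in 1 (median -0.61), and 1 was lower with 10. Beside Hsd11b1 and Slc22a7, beta-glucuronidase (Gusb), a lysosomal enzyme that androgen induces in mouse kidney, had 9.06, 10.21, 8.63 and 9.03 in the rapamycin kidneys, 8.60 and 8.97 in the 25-month controls and 10.54, 10.98, 9.96 and 9.85 in the 25-week controls. Again the low-signal array lay within the 25-week range and the other 3 below it, with a difference of -1.41 ± 0.24 (adjusted p = 0.00665) and all 3 probes called. Cyp4a12a, a male-specific fatty acid hydroxylase with a near-identical neighbour, differed by -1.21 ± 0.30, 6 of 9 fits (0.032), and Cyp7b1, an oxysterol hydroxylase, by -0.84 ± 0.20, 3 of 9 fits (0.0293). Without rapamycin replicate 3 the adjusted p of Cyp4a12a was 0.143 and that of Cyp7b1 0.136. Odc1, which makes polyamines, fell too (-1.12 ± 0.19; named after its value was seen), while Kap, the androgen-regulated kidney protein, gave -0.03. The transporter Abcc3 rose (0.96 ± 0.16, 0.00555).

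Further along the nephron, a few members of the thick limb and principal cell lists were called with 9 arrays, where 6.04% of all genes were higher and 2.83% lower. The defining markers of the thick limb, Umod (0.19 ± 0.11, adjusted p = 0.271) and Slc12a1 (0.05 ± 0.20, 0.905), were not called. In the loop of Henle and thick limb 2 of 14 rose with 9 arrays, Cldn4, a tight junction claudin (0.92 ± 0.17, adjusted p = 0.00837), and the phosphatase inhibitor Ppp1r1a (0.38 ± 0.10, 3 of 9 fits, 0.043). None of 11 distal convoluted tubule genes and none of 11 intercalated cell genes passed, although the sodium-chloride transporter Slc12a3 came close (0.42 ± 0.12, 0.0501). In principal cells of the collecting duct 3 of 11 rose and 1 fell, with Aqp4, a basolateral water channel, at 0.83 ± 0.17, 7 of 9 fits (0.0168) and Fxyd4, a regulator of the sodium pump, at 0.48 ± 0.12, 4 of 9 fits (0.0355). Tmem45b fell (-0.54 ± 0.12, 6 of 9 fits). The vasopressin-regulated channel Aqp2, the third riser, gave 0.57 ± 0.16, 3 of 9 fits (0.0493). No gene of these 4 lists was called with 10 arrays, and 15 endothelial genes gave no call in either fit.

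Detoxification genes changed in both directions, with 6 of 28 higher and 2 lower with 9 arrays. With 10 arrays 3 of 28 were higher and none was lower. Aldh1a7, the close relative of Aldh1a1, had 7.81, 7.10, 7.76 and 7.83 in the rapamycin kidneys, 7.70 and 7.92 in the 25-month controls and 6.19, 6.35, 6.47 and 6.59 in the 25-week controls and rose in both fits (1.23 ± 0.19, adjusted p = 0.0347), as did the epoxide hydrolase Ephx1 (1.05 ± 0.18, 0.0479). Nqo1 and Hmox1, widely used targets of the factor NRF2, gave 0.22 and -0.52 and were not called, and Gclm, a subunit of the enzyme that starts glutathione synthesis, fell (-0.58 ± 0.13, 5 of 9 fits); these 3 were named after their values were seen. In the kynurenine and NAD list Kynu rose alone. Its neighbour in the pathway Kmo gave 0.15 and was not called, while Aadat, which converts kynurenine to kynurenic acid, fell (-0.83 ± 0.16, 0.00962), as did the NAD synthesis enzyme Nmnat3 (-0.46 ± 0.12, 3 of 9 fits, 0.0351).

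Clock genes differed in both arms of the oscillator. In the known cycle, Arntl and its partners switch on Per and Cry genes and the D-box factors, which in turn repress or follow them. With 9 arrays 8 of 16 members were higher and 3 were lower. With 10 arrays Dbp was the 1 member called. Dbp, a D-box factor, had 10.38, 10.58, 10.85 and 10.62 in the rapamycin kidneys, 10.77 and 10.35 in the 25-month controls and 9.23, 8.78, 8.69 and 9.11 in the 25-week controls. The groups of treated and 25-week kidneys did not overlap, and Dbp rose in both fits (1.66 ± 0.18, adjusted p = 0.0102, and 1.65 ± 0.17, 0.000478). Per1 had 8.45, 7.68, 9.06 and 8.85 in the rapamycin kidneys, 8.18 and 8.24 in the 25-month controls and 7.38, 6.66, 7.45 and 7.71 in the 25-week controls and rose by 1.47 ± 0.22 (0.00338). Nr1d1, a repressor in the cycle, rose by 0.69 ± 0.11 (0.00508), and Per2 by 1.06 ± 0.20, 8 of 9 fits. The 3 members that fell were Arntl (-0.84 ± 0.16, 8 of 9 fits, 0.0111), its partner gene Npas2 (-0.72 ± 0.18, 3 of 9 fits, 0.0369) and the D-box repressor Nfil3 (-1.14 ± 0.21, 0.00806); these 3 and Per2 were named after their values were seen. The sources used here do not give the hour at which tissue was taken. The start window of Per1 (RefSeq, build GRCm38.p6, chr11:69098699-69098948, plus strand) is shown because it holds an E-box, CACGTG, the letters that Arntl and its partners bind, 166 bases before the start. The other capitals mark matches of the antioxidant response element core TGACNNNGC. The E-box occurred in 8 of the 106 windows of selected genes (7.55%), against 6.02% of all windows, and the antioxidant response element core in 14 (13.2%), against 10.2%.
Per1: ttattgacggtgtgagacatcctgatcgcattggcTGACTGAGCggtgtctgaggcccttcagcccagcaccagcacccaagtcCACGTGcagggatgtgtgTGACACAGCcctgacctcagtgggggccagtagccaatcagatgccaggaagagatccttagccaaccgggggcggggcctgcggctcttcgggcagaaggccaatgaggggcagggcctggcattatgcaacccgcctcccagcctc

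Glucocorticoid-responsive genes were higher in 9 of 16 cases with 9 arrays and lower in none, and 2 of 16 were higher with 10. Lcn2, Per1 and Cdkn1a belong to this list as well as to others. Tsc22d3, a leucine zipper protein known as GILZ, had 10.12, 9.96, 10.62 and 10.54 in the rapamycin kidneys, 9.78 and 9.60 in the 25-month controls and 9.36, 8.84, 9.23 and 9.35 in the 25-week controls. The treated kidneys lay above both control groups, with a rise over 25 weeks of 1.12 ± 0.19 (adjusted p = 0.0492) and 1.22 ± 0.15 (0.00131) with 9 arrays. The kinase Sgk1, which acts on sodium channels, rose by 0.79 ± 0.11 (0.00184), and Fkbp5 gave 0.43 ± 0.19 (0.188). Immediate early genes were higher in 7 of 11 cases and lower in none with 9 arrays, and none of 11 was called with 10. Egr1 had 11.05 on the low-signal array and 8.28 to 9.08 on the other treated arrays, 8.37 to 9.18 in the 25-month controls and 6.73 to 7.63 in the 25-week controls, a rise of 1.54 ± 0.25 (0.00519). Egr2 (0.81 ± 0.14) and the vascular factor Klf2 (0.62 ± 0.09) also rose. The cold-inducible RNA-binding proteins Rbm3 and Cirbp rose by 1.45 ± 0.17 (0.000945) and 0.83 ± 0.14 (0.00582). On the second array Rbm3 read 6.98, against 9.56 to 10.14 on the other treated arrays and 8.17 to 8.63 in the 25-week controls, and with 10 arrays neither gene was called. For Rbm3, 1 of 3 tested probes was called.

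**Figure D4:**
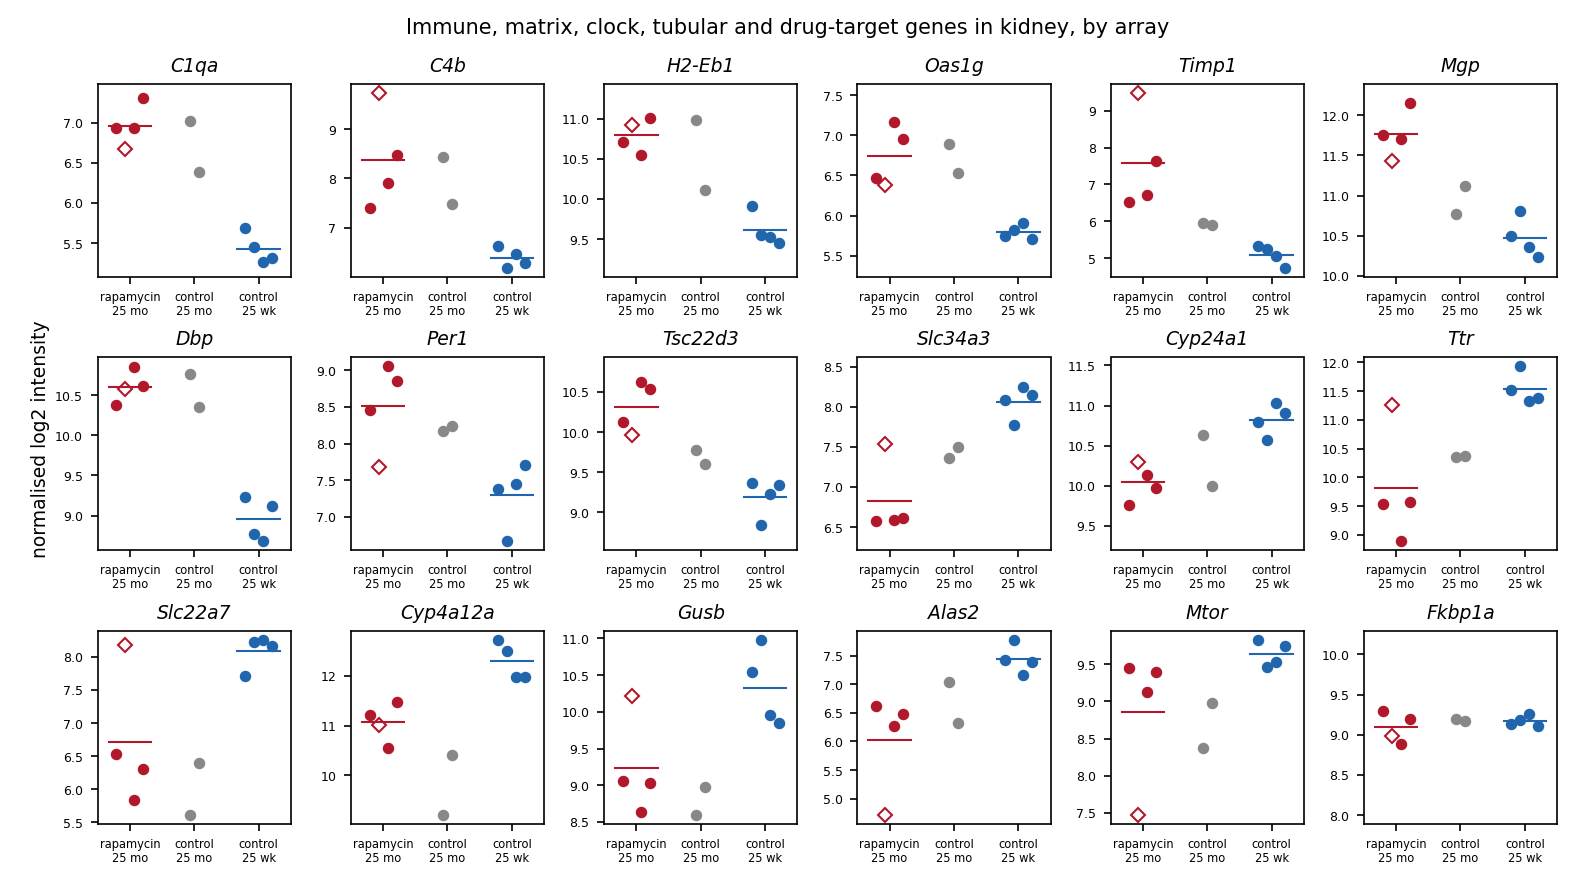
Normalised log2 intensity of 18 genes named in the text, with 1 point per kidney array for rapamycin at 25 months, control at 25 months and control at 25 weeks; lines are means of the 4 rapamycin and the 4 control arrays at 25 weeks, and the open diamond is rapamycin replicate 2. In the panels of Timp1, Mgp and Tsc22d3 all 4 treated kidneys lie above both control groups, and Mtor shows that diamond at 7.47, below all other kidneys.

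The direct targets of the drug and the processes downstream of mTOR complex 1 gave the following calls with 9 arrays. With 10 arrays no gene of the lists in this paragraph was called. Over all genes, 6.04% were called higher and 2.83% lower. Fkbp1a had 8.89 to 9.30 in the rapamycin kidneys and 9.11 to 9.26 in the 25-week controls, a difference of -0.04 ± 0.11 with 9 arrays (adjusted p = 0.837). Mtor had 9.45, 7.47, 9.12 and 9.39 in the rapamycin kidneys, 8.37 and 8.98 in the 25-month controls and 9.83, 9.46, 9.54 and 9.75 in the 25-week controls. The highest rapamycin kidney (9.45) lay just below the lowest 25-week kidney (9.46), and the difference, which was not called, was -0.32 ± 0.15 (0.217) with 9 arrays and -0.78 ± 0.40 (0.408) with 10. None of 13 mTOR complex and FKBP genes passed. Of 27 regulators and effectors 1 rose, Ddit4, an inhibitor of the pathway (0.79 ± 0.11, 0.00303), and 1 fell, Rragd, a GTPase that brings the complex to the lysosome (-0.51 ± 0.11, 6 of 9 fits, 0.0195). Rragd had 6.75 to 6.83 in treated kidneys, 7.15 to 7.25 in 25-month controls and 7.14 to 7.52 in 25-week controls. Of 17 ATF4 targets, which include genes of serine synthesis, Psat1 fell (-1.06 ± 0.16, 0.00378), and Nupr1 (0.91 ± 0.11) and the amino acid transporter Slc7a5 (0.61 ± 0.11) rose. Autophagy gave 1 fall in 20, the kinase Ulk2 (-0.65 ± 0.13, 7 of 9 fits, 0.0144), and the lysosome list 2 falls in 21, Gusb and Ctsa (-0.59 ± 0.14, 3 of 9 fits). No gene of cholesterol synthesis (15 tested), ribosome biogenesis (16) or the proteasome (25) was called with 9 arrays; the medians were -0.14, 0.05 and -0.07.

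Genes of energy metabolism mostly showed small differences. Over all genes, 6.04% were called higher and 2.83% lower with 9 arrays. The called counts of fatty acid oxidation, ribosomal protein and glycolysis genes lay near those shares and are not read as results about these lists. With 10 arrays no gene of these lists was called. None of 62 oxidative phosphorylation genes and none of 16 genes of the citric acid cycle was called, with medians of -0.11 and -0.11 with 9 arrays. Of 28 genes of fatty acid oxidation and peroxisomes, Ehhadh, a peroxisomal enzyme, fell (-0.94 ± 0.15, adjusted p = 0.00435) and Cyp4a14 and Angptl4, an inhibitor of lipoprotein lipase (0.60 ± 0.17, 2 of 9 fits, 0.0494), rose. With 9 arrays, cytosolic ribosomal protein genes had positive differences in 24 of 27 cases (median 0.27). Of these, 2 were called higher, Rps9 (0.44 ± 0.10, 4 of 9 fits, 0.0274) and Rps19 (0.40 ± 0.11, 3 of 9 fits, 0.0394). With 10 arrays 14 of 27 were positive (median 0.077) and none was called. Rps9 read 9.36 on the second array, against 11.28 to 11.60 on the other treated arrays and 10.96 to 11.11 in the 25-week controls. Glycolysis gave 1 rise, Aldoc (0.76 ± 0.15, 0.0112), and 1 fall, Pgam1 (-0.42 ± 0.10, 4 of 9 fits, 0.0256), in 16. Of 18 insulin and IGF genes 3 rose with 9 arrays and none with 10, led by the binding protein Igfbp2 (0.80 ± 0.11, 0.00182 with 9). No 25-week array detected Igfbp2, and its mean over the 4 rapamycin arrays was at least 1.48-fold higher. Of 17 genes of lipid and lipoprotein handling 4 rose and 1, Lpl, fell (median -0.0033), with rises of Gpnmb, a membrane protein of phagocytes, at 0.99 ± 0.09 (0.000332) and the lectin Lgals3 at 0.68 ± 0.13, 8 of 9 fits (0.0113). No 25-week array detected Gpnmb. Its bound of 2.27-fold compared the mean of all 4 rapamycin arrays, which the low-signal array raised (7.31, others 5.585 to 5.723). With 9 arrays the rise was 1.985-fold, below that bound, and with 10 arrays Gpnmb was not called (adjusted p = 0.159). Lpl was the 1 member of the lipid list called with 10 arrays. The summed intensity of the macrophage list stands above.

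Among markers of blood and of neighbouring tissues, erythrocyte genes were lower. Of 4 tested erythrocyte genes 2 fell with 9 arrays, Alas2, which starts haem synthesis in red cell precursors (-0.98 ± 0.18, 8 of 9 fits, adjusted p = 0.00927), and the beta-globin gene Hbb-bt, whose probe may read its near-identical partner (-0.92 ± 0.23, 4 of 9 fits, 0.0319). With 10 arrays no erythrocyte gene was called. The summed intensity of the 4 tested genes, most of it from members that were not called, was 2641 on the low-signal array, 5810 to 8398 on the other rapamycin arrays, 6769 to 11710 in the 25-month controls and 10100 to 13540 in the 25-week controls. The adipocyte list gave 1 call in 9, the fall of Lpl, which kidney cells also express. The summed intensity of that list was 4638 to 5941 in the rapamycin kidneys, 5770 to 6285 in the 25-month controls and 9647 to 12980 in the 25-week controls. Most of that sum was Lpl in every group, so it mainly repeats the fall of Lpl. The defining marker Adipoq differed by 0.76 ± 0.80 (0.592) and Plin1 was detected on no array. Akr1c18 also belonged to the list of the adrenal gland, which is known to express it in mice. Of that gland's defining markers, Star was detected on no kidney array, Cyp11a1 on 1 rapamycin array and Cyp11b1 on 1 array of the 25-month controls, and none on a 25-week array. No gene of the urothelium list was called.

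Most of the 17 genes called in both kidney fits differed less, or not detectably, in the brain and heart of the same mice. The difference between rapamycin at 25 months and control at 25 weeks was compared between tissues with limma over all 30 arrays, treating the mouse as a random effect. The kidney-minus-brain difference was called for 14 of the 17 genes, where 1.37% of 17062 probes were called (3.04% without the low-signal array, with 14 of 17 again), and for 11 with every mouse left out in turn. The kidney-minus-heart difference was called for 12, where 3.5% of probes were called (6.56% and 13 of 17 without that array), and for the same 12 with every mouse left out in turn. The 3 that did not hold in every such fit were Ms4a6d, Ccl9 and D630023F18Rik against brain. These 17 were selected for their kidney difference, so their counts describe them and do not stand as separate support. In brain, Kynu, Akr1c18 and Csprs were detected on none of the 8 compared arrays, Havcr1 on 1 and Cfi on 2. In heart, Kynu, Akr1c18, Havcr1 and Chrna4 were detected on none of 8, D630023F18Rik on 1 and Cfi on 2. For these genes the tissue difference mostly repeats the difference in kidney. Genes that brain and heart do express also parted: Aldh1a1 changed by -0.05 ± 0.19 in brain and 0.22 ± 0.19 in heart, and the kidney exceeded them by 2.44 ± 0.26 (4.6e-06) and 2.17 ± 0.26 (1.76e-05). Lpl changed by -0.03 ± 0.10 in heart and -0.07 ± 0.10 in brain, and the kidney fell below them by -1.16 ± 0.13 (8.57e-06) and -1.12 ± 0.13 (1.22e-05).

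Other members of the 17 changed in more than 1 tissue. Csprs rose by 1.94 ± 0.17 in heart (adjusted p = 2.5e-07), and its kidney-minus-heart difference was -0.14 ± 0.23 (0.7). Vcam1 (0.60 ± 0.15), Ms4a6d (1.06 ± 0.23) and Ccl9 (1.06 ± 0.24) rose in heart too, and for Vcam1 the rise in kidney was larger (1.41 ± 0.21, 0.000289), a difference that was not called with median scaling (1.15, adjusted p = 0.0985). With the same scaling the kidney-minus-brain differences of Ms4a6d (0.98, 0.18) and Ccl9 (1.16, 0.124) were not called either. The kidney-minus-heart difference was not called for Ms4a6d (0.90 ± 0.31, 0.089) or Ccl9 (0.80 ± 0.32, 0.126). None of the 17 was called within brain. Lcn2 gave 1.61 ± 0.44 there (adjusted p = 0.201), and its kidney-minus-brain difference, 0.76 ± 0.59 (0.49), was not called. H4c8 was lower in kidney than in heart by -1.20 ± 0.14 (1.76e-05), where heart itself gave 0.29 ± 0.11.

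**Figure D5:**
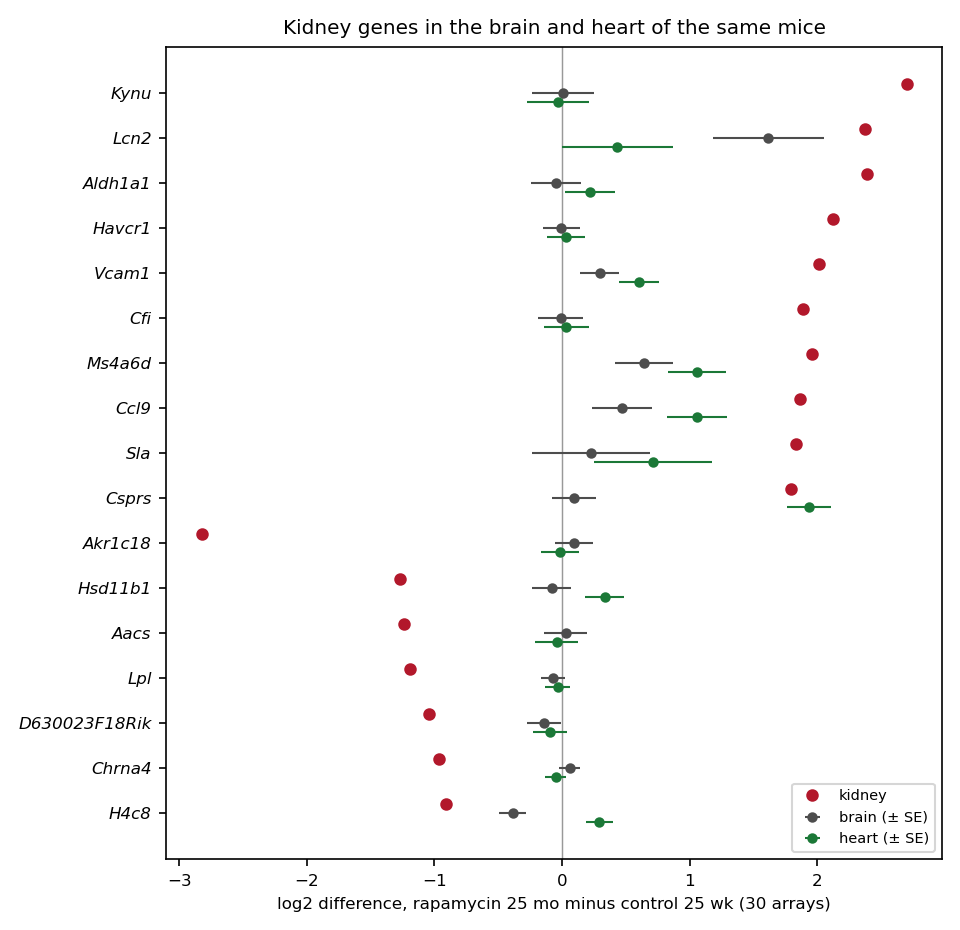
Log2 difference between rapamycin at 25 months and control at 25 weeks for the 17 genes called in both kidney fits, in kidney (red), brain (grey) and heart (green) of the same mice, from the fit of 30 arrays; bars on brain and heart are standard errors, and kidney is drawn without a bar. Csprs is the gene whose heart value, 1.94, lies beside its kidney value, and Akr1c18, not detected in brain or heart, lies near 0 there.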

How the data were processed

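RNA of kidney, brain and heart from 10 mice was hybridised to Illumina arrays, 1 array per mouse and tissue. Per the labels' protocols, RNA was extracted with Trizol and RNeasy and labelled with the Ambion MessageAmp kit; the submitters' processing notes name GenomeStudio 2011.1. The deposited non-normalized file holds, per the file headers, the intensity of every probe before normalization, with the p-value of its detection. A deposited matrix of the authors' background-subtracted intensity served as an alternative, and how it was normalised is not given in the sources used here.

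Kidney intensities were background-corrected and quantile-normalised (neqc, offset 16, limma 3.58.1, R 4.3.3), and probes with a detection p under 0.05 on at least 2 arrays were tested with 1 mean per group, so that the 25-month controls enter the normalization, the filter and the spread. The normalization and filter were repeated for the 9-array fit. The highest probe by mean stood for a gene, and 1719 of 25697 probes had no symbol. With 9 arrays, 1 of 2 tested probes was called for Nr1d1, Igfbp2, Ulk2, Rps19 and Fxyd4. For Ctsa 1 of 4 was called, and for Chrna4 and Usp18 2 of 3. Arrays carry no counting depth, so their number limits the precision. The fits were also run on simulated data with independent noise and 1 spread per probe. Those data held no low-signal array, so they do not bear on its effect on the counts.

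Members, the 52 gene lists and the naming rule were chosen with earlier results of these data known. Lists share members and were not tested as sets. Named were the 10 largest rises and all 7 falls called in both fits, the next 8 of each with 9 arrays, up to 3 called members of a list, and Mtor, Fkbp1a, C4b and Lyz2; genes said to be named after their values were seen stand outside this rule. For genes selected by rule, a kidney probe detected on no array of a group was given a bound, from the 10-array values. Such a bound compares group means and carries no standard error. Alternatives covered scaling, background correction, the authors' matrix, the detection filter, the moderation, array weights, the 2 groups alone, a replicate block and leaving out each array. Promoter windows were searched on both strands, and 4 of the 7 motifs searched were left out after their counts had been seen.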

Additional observations from a re-analysis of the deposited data

Results flagged for a closer look

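Rapamycin replicate 2 lay far from the other 3 arrays of its group in many genes. Its number of detected probes, 9989, and its median correlation across probes with the rest of the kidney arrays, 0.8585, were apart from the 12277 to 12737 probes and the 0.9885 to 0.9921 of the other rapamycin arrays. By Dixon's test at the 95% level, 25 of 224 sets of 4 values (the selected genes in either group) held a far value, and 17 of the 25 were on this array. Chance gives about 1 in 20 for values not used to choose the genes. That rate does not apply to this array, since 110 of the 112 genes were chosen as called without it, which favours genes whose other 3 rapamycin values lie close. In normalised log2 intensity it was far above the other treated arrays for Serpina10 (10.54, others 7.13 to 7.52), Cxcl1 (9.93, others 6.79 to 7.01), Slc34a3 (7.54, others 6.58 to 6.61), Slc7a5 (7.91, others 6.71 to 6.75), H2-Aa (11.61, others 8.99 to 9.29), Cd3e (7.35, others 5.46 to 5.64), Anxa2 (12.52, others 10.81 to 10.92), Aadat (7.68, others 6.55 to 6.61), Gpnmb (7.31, others 5.58 to 5.72), Cdkn2b (7.78, others 6.27 to 6.37) and Cdkn1c (11.34, others 9.90 to 9.95). It was far below them for Hao2 (9.09, others 10.00 to 10.18), Aldh1a7 (7.10, others 7.76 to 7.83), Rps9 (9.36, others 11.28 to 11.60), Pgam1 (6.30, others 8.05 to 8.30), Hspd1 (10.19, others 11.12 to 11.17) and Mtor (7.47, others 9.12 to 9.45). The remaining 8 sets had far values on other arrays: Akr1c18 in rapamycin replicate 4 (4.55, others 4.72 to 4.75), Hao2 in 25-week control 2 (7.27, others 8.22 to 8.38), Slc22a7 in 25-week control 1 (7.71, others 8.17 to 8.26), Abcc3 in 25-week control 3 (5.06, others 4.71 to 4.74), Ccnd1 in 25-week control 2 (11.64, others 11.10 to 11.17), Usp18 in 25-week control 1 (6.53, others 6.08 to 6.15), Anxa2 in 25-week control 3 (10.16, others 9.99 to 10.00) and Cdkn2b in 25-week control 2 (5.42, others 5.74 to 5.77). What sets these arrays apart was not tested.

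The difference between rapamycin at 25 months and control at 25 weeks differed between kidney and another tissue for most of the 17 genes called in both kidney fits, by limma's test of the difference itself over 30 arrays. As kidney minus brain, the 14 called log2 differences were those of Kynu (2.69 ± 0.33), Aldh1a1 (2.44 ± 0.26), Havcr1 (2.12 ± 0.20), Vcam1 (1.72 ± 0.21), Cfi (1.89 ± 0.24), Ms4a6d (1.32 ± 0.31), Ccl9 (1.39 ± 0.32), Csprs (1.70 ± 0.23), Akr1c18 (-2.92 ± 0.20), Hsd11b1 (-1.19 ± 0.21), Aacs (-1.26 ± 0.23), Lpl (-1.12 ± 0.13), D630023F18Rik (-0.90 ± 0.18) and Chrna4 (-1.02 ± 0.11). As kidney minus heart, the 12 called were those of Kynu (2.73 ± 0.33), Aldh1a1 (2.17 ± 0.26), Havcr1 (2.09 ± 0.20), Vcam1 (1.41 ± 0.21), Cfi (1.85 ± 0.24), Akr1c18 (-2.81 ± 0.20), Hsd11b1 (-1.60 ± 0.21), Aacs (-1.19 ± 0.23), Lpl (-1.16 ± 0.13), D630023F18Rik (-0.95 ± 0.18), Chrna4 (-0.91 ± 0.11) and H4c8 (-1.20 ± 0.14). Errors are standard errors. Where a gene was near or below detection in the other tissue (Kynu, Akr1c18, Havcr1 and Cfi in both, Csprs in brain, Chrna4 and D630023F18Rik in heart), the value mostly repeats the difference in kidney.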

How the results depend on the processing

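The count of called probes moved by over 1.5 times under some settings. With 10 arrays (51 called) it was 30 without background correction, 2931 with array weights, 4 with the replicate number as a block and 2 to 1156 with each array left out. With 9 arrays (1156 called) it was 2800 with array weights, 623 with the replicate block and 431 to 2318 with each array left out. Same-numbered rapamycin and 25-week arrays deviated together with correlations of 0.3132, 0.04907, 0.02758 and 0.0001317, so the numbers were not taken to pair mice. The kidney-minus-brain count (234) was 516 without the low-signal array, 149 without the mouse block and 84 to 424 with each mouse left out; the kidney-minus-heart count (598) was 1114, 289 and 124 to 1602, and 270 with median scaling. Rps9 turned from -0.08 with 10 arrays to 0.49 with array weights and gave -0.31 to 0.44 with each array left out, the highest without rapamycin replicate 2. Fkbp1a turned from -0.04 with 9 arrays to 0.026 with median scaling and gave -0.13 to 0.077 with each array left out, the highest without rapamycin replicate 3. Over all alternatives the single-gene results kept their direction and side of the threshold in 3937 cases, lost the call in 457 and gained it in 188; 1881 list medians moved by less than the spread and 43 by more. The causes were not tested. Kidney treatment and age are confounded, no slide identifiers were used here, and probes near background have no depth to rank them.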
